A study of Mus musculus with 5 samples.

Results

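Non-cycling CD8 T lymphocytes were the 8110 barcodes, of 60043 kept in 5 kidney libraries, that carried at least 2 UMIs of Cd3e, Cd3d and Cd3g together and at least 2 of Cd8a and Cd8b1 together. They held no UMI of Cd4 or Foxp3, at most 1 of the proliferation genes Mki67 and Top2a, at most 2 of the macrophage complement genes C1qa, C1qb and C1qc, and at most 1 of the endothelial genes Egfl7 and Plvap. A barcode was kept if it had at least 200 genes and at most 30% mitochondrially encoded UMIs. These gate genes chose the cells, so their levels are not results. The libraries came from whole kidneys of male C57BL/6 wild-type mice aged 8 to 10 weeks, digested without a sort for immune cells and profiled by droplet 3' single-cell RNA sequencing. Aristolochic acid I (AAI), a plant nephrotoxin, was injected intraperitoneally at 3 mg/kg every 3 days over 2 weeks. The 2 AKI (acute kidney injury) libraries were taken at week 2, and the 2 CKD (chronic kidney disease) libraries at week 4, after 2 weeks without AAI. The control is described as vehicle-treated and also as the baseline, so its time point is not settled, and each comparison with control rests on 1 library. The methods give the libraries as the sample size and do not say whether a library held the tissue of a single mouse or of several. P-values therefore measure the spread between libraries, which may be technical.

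CD8 T lymphocytes recognise peptides on MHC class I and kill by releasing perforin and granzymes from cytotoxic granules. Naive cells carry Ccr7 and recirculate through lymph nodes. Effector cells make interferon gamma and the chemokines Ccl3, Ccl4, Ccl5 and Xcl1, and a resident fraction in epithelial tissues keeps the E-cadherin-binding integrin Itgae (CD103) and Itga1 (CD49a). In the kidney, resident and infiltrating T cells lie mainly in the interstitium between the tubules.

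All values below are given in the order control, AKI 1, AKI 2, CKD 1, CKD 2, and a level is the UMIs of a gene per 10000 UMIs summed over the cells of one library. The kept and discarded barcodes of a library summed to between 90028670 and 121316769 UMIs. In the control library, 38.7% of barcodes exceeded the mitochondrial limit, against 11.1% to 12.7% in the others. The CD8 cells had median UMI counts of 3718, 4133.5, 4062, 3936 and 5817.5, with CKD 2 the deepest. Between 1.12% and 1.68% of the members of a library shared a barcode with a kept one of any other library, and in no shared pair did the other barcode hold over 20 times as many UMIs. Of receptor genes that the gate did not use, Trac, the T-cell receptor alpha chain, was at 3.48, 5.73, 6.00, 4.86 and 5.51 in members and between 0.00851 and 0.520 in B lymphocytes, and the gamma-delta receptor gene Trdc was detected in 0.389% to 2.01% of members. Cd8b1 was detected in 91.6% to 96.4%, a share that the gate in large part sets. Messages of other cells were present in the sums. Summed levels of 5 macrophage markers (Csf1r, Adgre1, Lyz2, Apoe and Cd68, without the C1q genes that the gate limits) were 0.788, 3.58, 4.83, 3.24 and 1.41, those of 9 proximal tubule markers 32.4, 24.5, 18.1, 36.7 and 7.81, and those of 9 dendritic cell markers 2.66, 10.9, 15.6, 14.9 and 8.61. Each of these macrophage and proximal tubule markers was above 0 in each library, and 3 of the dendritic cell markers were at 0 in control. Between 53.7% and 76.9% of members carried no UMI of Cd79a, Cd79b, C1qa, C1qb, C1qc, Csf1r, S100a8, Egfl7, Plvap or Lrp2. These are the cells called below those with no UMI of another lineage. The filter holds none of the dendritic cell markers and, of the proximal tubule markers, only Lrp2, so RNA of other cells can remain. At the edge of the gate, cells with 1 Cd8 UMI, which were left out, had Ccl5 levels of 51.3, 91.9, 87.5, 42.7 and 60.3, and those with exactly 2, which were taken in, had 69.4, 91.4, 104, 61.1 and 109.

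CD8 T lymphocytes made up a larger part of the AKI libraries than of the control library, and their share differed widely between the CKD libraries. They numbered 298, 2418, 2277, 1543 and 1574. Of kept barcodes this was 3.25% in control (exact 95% binomial interval 2.90% to 3.63%), 21.6% (20.8% to 22.4%) and 21.0% (20.2% to 21.8%) in the AKI libraries, and 7.99% (7.61% to 8.38%) and 16.6% (15.8% to 17.3%) in the CKD libraries. The intervals cover counting error only. Both CKD shares lay below both AKI shares. The mean was 21.3% ± 0.425 (SD, n = 2) in AKI and 12.3% ± 6.06 (SD, n = 2) in CKD, a difference of -9.01 percentage points. With 2 libraries against 2, the two-sided exact permutation test gave p = 0.333, the smallest it allows. Without CKD 1 the difference was -4.73 points. Counting only members with no UMI of another lineage, still over all kept barcodes, gave -3.21 points (exact permutation p = 0.667). The groups then overlapped, with 12.9% and 11.3% in AKI and 5.01% and 12.7% in CKD. With the cycling CD8 cells, which the gate leaves out, counted in, the shares were 23.4% and 22.7% in AKI and 10.8% and 22.6% in CKD, so that CKD 2 lay within the counting interval of AKI 2. Fewer cells of this type and more of every other type cannot be told apart in a share.

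**Figure D1:**
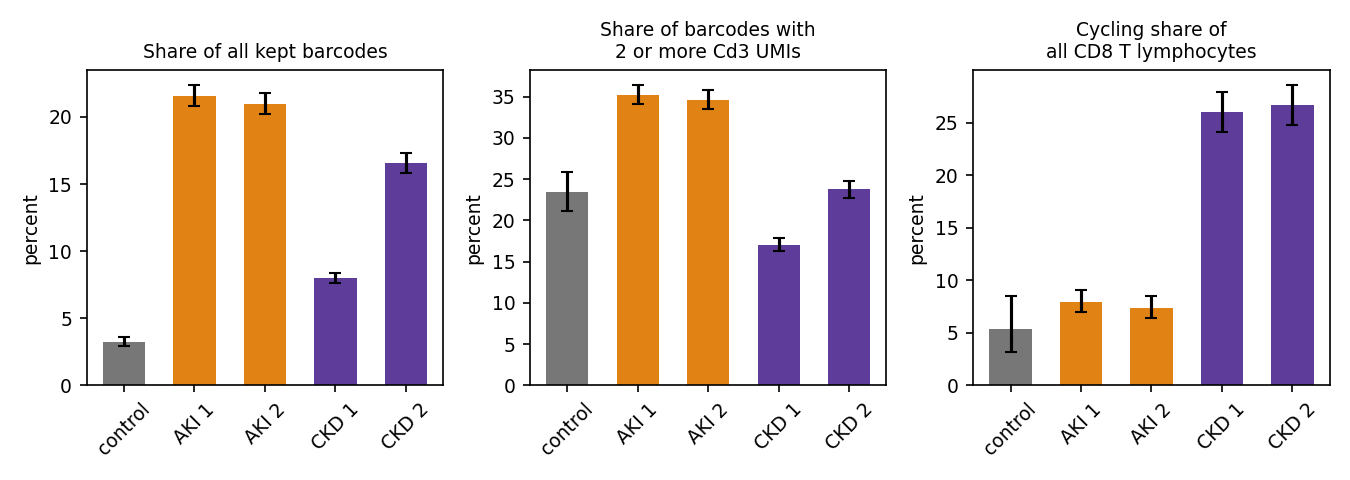
Share of non-cycling CD8 T lymphocytes among all kept barcodes of each library, in percent, with exact 95% binomial intervals that cover counting error only. The AKI libraries sit at 21.6% and 21.0%, the CKD libraries at 7.99% and 16.6%, and the control library at 3.25%.

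The share among T cells gave the same order of AKI over CKD. Of barcodes with at least 2 Cd3 UMIs, CD8 T lymphocytes were 23.4%, 35.2%, 34.6%, 17.1% and 23.7%. The difference of CKD from AKI was -14.5 points (exact permutation p = 0.333). Cells were then thinned to 2000 UMIs before the gate. Kept barcodes below that depth were left out, which left 6950, 9149, 9157, 14760 and 8561. The shares of T cells were 17.5%, 27.0%, 27.2%, 16.8% and 21.6%, a difference of -7.91 points (exact permutation p = 0.333). The CKD 2 share, level with control before thinning, then lay above it. Set against conventional CD4 T lymphocytes alone (the same gate with Cd4 in place of Cd8, no Foxp3), CD8 cells were 67.1%, 73.1%, 73.7%, 67.3% and 56.2% of the pair. Cycling CD8 cells, with at least 2 UMIs of Mki67 and Top2a, were left out of the members, and their share was higher in CKD than in AKI. They made up 5.40%, 7.96%, 7.40%, 26.0% and 26.6% of all CD8 cells, and 2.82%, 3.40%, 2.95%, 13.8% and 11.5% once cells were thinned to 2000 UMIs as above. The CKD libraries did not overlap with the AKI libraries in either form.

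Against conventional CD4 T lymphocytes of the same libraries, CD8 T lymphocytes carried the killing machinery and the NK-type receptors, and 13 of 22 cytokine and chemokine ligands and 24 of 62 interferon-stimulated genes were lower in CD8 cells. edgeR's quasi-likelihood test on the 5 paired sums, with library as a block and Benjamini-Hochberg adjustment, called 1699 of 11410 genes, which is 14.9%. Of all genes tested, 6.77% were higher and 8.12% lower in CD8 cells, and the median log2 difference over all genes was 0.00. Conventional CD4 cells numbered 146, 891, 814, 749 and 1227. Without the control library 2042 genes were called and without CKD 2, 1079. Among cells with no UMI of another lineage 1635 were called, 838 higher and 797 lower, against 773 higher and 926 lower over all members.

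Of the cytotoxic granule and killing list, 14 of 17 tested genes were higher in CD8 cells and 1 was lower, with a median log2 difference of 0.89. Granzyme B (Gzmb), a serine protease that activates caspases in the target, was at 1.56, 1.83, 2.22, 1.96 and 1.57 in CD8 cells and at 0, 0.108, 0.0979, 0.132 and 0.116 in CD4 cells. Its log2 difference was 4.16 (SE 0.14, edgeR adjusted p = 7.7e-09). Granzyme A (Gzma), a tryptase-like granzyme, was at 0.947, 2.08, 2.04, 1.88 and 2.59 in CD8 cells and never above 0.200 in CD4 cells, with a log2 difference of 3.88 (SE 0.12, edgeR adjusted p = 2.6e-09). In both genes the lowest CD8 library lay above the highest CD4 library. Perforin (Prf1), which forms the pore through which granzymes enter, was lower in level, at 0.408, 0.388, 0.349, 0.189 and 0.255 in CD8 cells, and differed by 3.65 (SE 0.19, edgeR adjusted p = 2.8e-07). Granzyme K (Gzmk), typical of memory-like CD8 cells, was at 0.532, 0.797, 0.814, 0.796 and 0.820 in CD8 cells against 0.0806, 0.307, 0.400, 0.281 and 0.279 in CD4 cells. Nkg7, a granule membrane protein, differed by 1.59, and Cst7, an inhibitor of granule cathepsins, by 1.90. B lymphocytes of the same libraries, which lack these genes, had Gzmb levels between 0 and 0.0743.

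The start regions of both granzyme genes hold a match to the RUNX consensus TGTGGTT or its reverse complement AACCACA, shown because Runx3, the RUNX factor of the CD8 lineage, was itself higher in CD8 than CD4 cells. Runx3 was at 2.14, 2.52, 2.21, 1.75 and 2.18 against 0.984, 1.24, 1.33, 0.946 and 1.23, a log2 difference of 0.97 (SE 0.06, edgeR adjusted p = 1.3e-06). The windows are RefSeq sequences on GRCm38.p6, run from 250 bases before to 50 bases after the annotated start, and are written 5' to 3' on the strand of the gene with the match in capitals. In Gzma (chr13:113100932-113101231, minus strand) the match begins 51 bases upstream of the start, and in Gzmb (chr14:56262285-56262584, minus strand) 34 bases upstream.
Gzma: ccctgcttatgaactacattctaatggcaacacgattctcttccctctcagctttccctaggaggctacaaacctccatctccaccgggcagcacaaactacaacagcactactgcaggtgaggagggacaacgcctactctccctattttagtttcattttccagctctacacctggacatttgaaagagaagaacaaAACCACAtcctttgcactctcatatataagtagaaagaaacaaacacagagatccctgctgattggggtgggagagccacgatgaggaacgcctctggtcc
Gzmb: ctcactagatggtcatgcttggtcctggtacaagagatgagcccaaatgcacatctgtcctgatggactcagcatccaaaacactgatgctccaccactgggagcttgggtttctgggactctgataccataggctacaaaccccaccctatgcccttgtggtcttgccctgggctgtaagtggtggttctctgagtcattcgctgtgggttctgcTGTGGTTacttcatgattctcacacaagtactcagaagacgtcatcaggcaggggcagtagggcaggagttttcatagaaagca
Searched on both strands, the motif was in at least 1 window of 6.09% of the 27025 genes searched, which had 32851 windows since a gene may have several, and of 4 of the 17 cytotoxic genes with a window (23.5%). A match is a run of letters and not a measured binding site.

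NK-type receptors, which sense MHC class I or stress ligands, were higher in CD8 cells. Of 11 tested genes 8 were higher in CD8 than CD4 cells and none was lower, with a median log2 difference of 3.03. Klrd1 (CD94), the partner of the NKG2 receptors, was at 0.864, 0.711, 1.11, 0.917 and 0.992 against 0.226, 0.0304, 0.0391, 0.116 and 0.0853 in CD4 cells, a log2 difference of 3.71 (SE 0.22, edgeR adjusted p = 5.6e-07). Klrc1 (NKG2A) differed by 4.76 and the activating receptor Klrk1 (NKG2D) by 3.38. Cd7, an immunoglobulin-family coreceptor, was nearly level across libraries at 1.12, 1.02, 1.00, 0.933 and 1.08 and differed by 3.03. The surface protein Ly6c2, high on memory and effector CD8 cells, was at 3.28, 2.08, 2.04, 5.04 and 3.83 against 1.24, 0.159, 0.117, 0.306 and 0.279 (log2 difference 3.62).

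Chemokine and cytokine genes differed in both directions. Ccl5, a chemokine that draws in T cells and monocytes, was at 67.6, 98.5, 99.9, 79.1 and 101 in CD8 cells and at 9.66, 33.9, 35.1, 31.1 and 35.9 in CD4 cells, a log2 difference of 1.78 (edgeR adjusted p = 1.2e-05). Ccl3 and Ccl4, which draw in myeloid cells, differed by 1.55 and 1.36. Of the 22 cytokine and chemokine ligands, 3 were higher and 13 lower in CD8 cells, and the 3 were these Ccl genes. Cd40lg, the CD4 helper signal to B cells and macrophages, was at 0.0622, 0.0509, 0.0554, 0.0378 and 0.0340 in CD8 cells and at 1.44, 0.972, 0.906, 0.516 and 0.820 in CD4 cells, a log2 difference of -4.13 (SE 0.11, edgeR adjusted p = 2.2e-09). Tnfsf8 (CD30 ligand), Areg (an EGF-receptor ligand), Tnfsf11 (RANKL) and Tnf were lower by log2 differences of -3.39, -2.86, -2.21 and -1.16. Ifng, the gene of interferon gamma, was at 3.51, 4.55, 5.34, 3.98 and 3.90 in CD8 cells and at 5.29, 4.86, 5.62, 5.11 and 4.28 in CD4 cells, and its log2 difference of -0.16 (SE 0.07) was not called (edgeR adjusted p = 0.2).

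**Figure D2:**
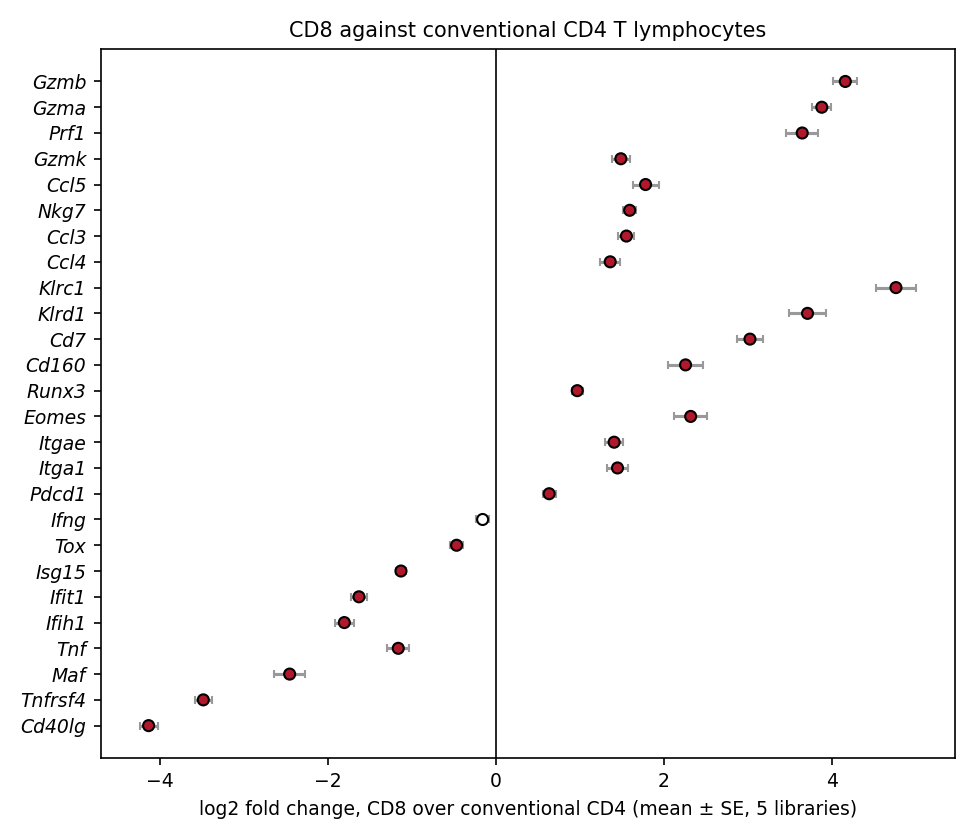
Log2 difference between CD8 and conventional CD4 T lymphocytes, within library, for named genes grouped by role, with the standard error of the edgeR fit. Granzymes, Prf1 and the Klr receptors lie far to the right, Cd40lg and Tnfrsf4 far to the left, and Ifng near 0.

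Of 62 tested interferon-stimulated genes, 24 were lower in CD8 than CD4 cells and 4 higher, with a median log2 difference of -0.25. Isg15, a ubiquitin-like modifier, was at 2.33, 5.97, 5.56, 5.89 and 5.58 in CD8 cells and at 6.00, 13.5, 13.3, 14.2 and 11.2 in CD4 cells, a log2 difference of -1.13 (SE 0.06, edgeR adjusted p = 2.6e-07). Ifit1, which binds foreign RNA ends, and Ifih1 (MDA5), a sensor of double-stranded RNA, differed by -1.63 and -1.80. In all 3 genes the CD4 level was above the CD8 level in every library. Rsad2 (viperin) was at 0.0968, 0.479, 0.465, 0.546 and 0.435 against 0.871, 1.15, 1.01, 1.59 and 1.02, a log2 difference of -1.28 (chosen after its values were seen). In B lymphocytes Isg15 was at 0.0681, 0.695, 0.669, 0.365 and 1.20, below the CD8 level of the same library throughout.

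The promoters of 3 of these genes are printed because they carry the element through which interferon signalling acts. The core of the interferon-stimulated response element (ISRE), searched as GAAA, any pair of bases (NN) and GAAA again on both strands, is in capitals, and overlapping matches run together. In Isg15 (chr4:156200769-156201068, minus strand) 3 overlapping matches begin 78, 72 and 66 bases upstream of the start. In Ifit1 (chr19:34640639-34640938, plus strand) matches begin 104 and 85 bases upstream and read on the reverse strand, as does that of Rsad2 (chr12:26456403-26456702, minus strand) 120 bases upstream. The windows are RefSeq GRCm38.p6 of the same span as above.
Isg15: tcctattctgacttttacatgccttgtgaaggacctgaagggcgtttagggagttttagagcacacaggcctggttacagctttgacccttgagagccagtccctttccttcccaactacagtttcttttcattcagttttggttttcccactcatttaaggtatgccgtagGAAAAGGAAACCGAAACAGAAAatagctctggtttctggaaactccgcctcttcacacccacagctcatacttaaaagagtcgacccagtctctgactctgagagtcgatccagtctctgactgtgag
Ifit1: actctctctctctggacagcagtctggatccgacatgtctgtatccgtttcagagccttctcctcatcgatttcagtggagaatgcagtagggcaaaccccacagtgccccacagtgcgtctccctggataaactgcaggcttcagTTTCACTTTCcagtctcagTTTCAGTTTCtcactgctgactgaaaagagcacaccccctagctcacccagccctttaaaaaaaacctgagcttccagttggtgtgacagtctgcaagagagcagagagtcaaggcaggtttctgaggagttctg
Rsad2: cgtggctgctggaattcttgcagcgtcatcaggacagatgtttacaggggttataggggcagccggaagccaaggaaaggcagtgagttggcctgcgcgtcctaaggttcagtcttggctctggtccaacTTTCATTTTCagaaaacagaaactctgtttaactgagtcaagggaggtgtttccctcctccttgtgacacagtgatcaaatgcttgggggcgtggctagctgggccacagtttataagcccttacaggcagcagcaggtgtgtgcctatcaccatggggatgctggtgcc
Of the 50 list genes with a window, 30 held the element in at least 1 window (60%), against 3.99% of all 27025 genes.

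Residency, memory and checkpoint genes differed in both directions between CD8 and CD4 cells. Of 14 tissue residency genes 7 were higher and 2 lower in CD8 cells. Itgae was at 0.0622, 0.899, 0.933, 0.458 and 0.651 in CD8 cells and at 0, 0.435, 0.285, 0.204 and 0.253 in CD4 cells, a log2 difference of 1.41 (SE 0.11, edgeR adjusted p = 4.3e-06). Itga1, the collagen-binding integrin, differed by 1.45, while the chemokine receptor Cxcr6 did not pass, at 1.53, 2.03, 2.17, 1.51 and 1.58 against 1.58, 1.44, 1.90, 1.54 and 1.69 (log2 difference 0.20, edgeR adjusted p = 0.15). Of 18 effector and memory transcription factors 3 were higher and 5 lower in CD8 cells, with a median log2 difference of -0.01. The transcription factor Eomes, a driver of memory and cytotoxic genes, was higher by 2.32 and its relative Tbx21 (T-bet) differed by 0.30 (edgeR adjusted p = 0.088). Maf, a factor of helper cells, was lower by -2.45. Of 19 checkpoint and exhaustion genes 5 were higher and 8 lower. The inhibitory receptor Pdcd1 (PD-1) was higher in CD8 cells (log2 difference 0.64, edgeR adjusted p = 0.00015), whereas Ctla4, named after its values were seen, and the exhaustion factor Tox were lower (-0.72 and -0.47).

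Against natural killer cells, which share the granule programme without a T-cell receptor, CD8 T lymphocytes had less granzyme A and perforin and more of the receptor chains. Natural killer cells were chosen by UMIs of the NK receptor genes Ncr1 and Klrb1c and by having no Cd3 UMI. The CD8 gate required Cd3 UMIs. The differences in receptor-chain genes, NK-type receptors and their adaptor Tyrobp were thus in part set by the choice of cells. Only the control and both CKD libraries had at least 20 natural killer cells (82, 26 and 56), so the test paired these 3 libraries. edgeR called 427 of 6732 genes (6.34%), 158 higher (2.35%) and 269 lower (4%) in CD8 cells, with a median of 0.03 over all genes. Gzma was at 38.0, 48.7 and 45.1 in natural killer cells of control, CKD 1 and CKD 2, and differed by -4.66 (SE 0.21, edgeR adjusted p = 1.8e-09). Prf1 differed by -4.24 and Gzmb by -1.30. Ccl5 did not pass, at 98.4, 144 and 105 in natural killer cells (log2 difference -0.45, edgeR adjusted p = 0.087), and neither did Nkg7 (-0.43, edgeR adjusted p = 0.15). The direction differed for Gzmk, which was called higher in CD8 cells (edgeR adjusted p = 7.4e-05) and stood at 0.0311, 0 and 0 in natural killer cells. Of 14 NK-type receptor genes 13 were lower in CD8 cells (median -4.21), as were 18 of 26 TCR signal and immediate early genes (median -0.76). Tyrobp, the adaptor of activating NK receptors, differed by -4.86, and Irf8 by -4.75. Of 24 genes of the TCR complex 14 were higher in CD8 cells and 1 lower, with Trac, the alpha constant chain, at a log2 difference of 4.37. Without the control library 637 genes were called, 403 of them higher.

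Against the single control library, most naive genes were at lower levels in both AKI libraries, and most residency, checkpoint and immediate early genes at higher levels, with no gene passing adjustment. In AKI against control edgeR called 0 genes (0 of 13764, lowest edgeR adjusted p = 0.085). At an unadjusted p under 0.05 there were 2741 genes (19.9%), and DESeq2 called 403. For most genes both AKI levels lay on the same side of the single control level, with 39.2% of genes higher in both AKI libraries and 50.5% lower in both, so a list is read against those shares. Lists are given with counts of genes higher and lower in both AKI libraries and the median log2 difference, beside a median of 0.05 over all genes.

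Of the 20 naive and stem-like genes, 18 were lower in both AKI libraries and 2 higher (median -0.85). Ccr7, the lymph node homing receptor, was at 1.09, 0.313, 0.492, 0.856 and 0.849, and Lef1, a Wnt-pathway factor of naive cells, at 0.733, 0.274, 0.293, 0.361 and 0.399. The control library was the highest in both genes. Klf2, which drives S1pr1, was at 8.62 in control and between 3.11 and 3.90 in the others, and was named after its values were seen. Il7r, 1 of the 2 genes higher in both AKI libraries, was at 1.30, 1.41, 1.87, 0.690 and 1.38 (log2 difference 0.48, edgeR adjusted p = 0.64).

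Of 14 residency genes, 11 were higher in both AKI libraries and 2 lower (median 0.87). Itgae was 9 UMIs in all of the control cells, and its AKI levels of 0.899 and 0.933 gave a log2 difference of 4.02 (SE 0.47, edgeR adjusted p = 0.085). Thinned to 1000 UMIs a cell, Itgae was detected in 0 of 297 control cells, which allows a share of cells with a UMI at that depth of up to 1.23% (exact interval), and in 10.1%, 7.64%, 4.15% and 5.72% of the others. Unthinned shares were 2.68%, 24.4%, 24.8%, 12.8% and 22.2%, and in B lymphocytes thinned alike the share was 0 in every library, at median depths of 2202 to 3063 UMIs before thinning. Ldlrad4, a negative regulator of TGF-beta signalling, was at 0.111, 0.965, 1.13, 0.411 and 0.433 (log2 difference 3.38, SE 0.28, edgeR adjusted p = 0.085), and Xcl1, which attracts cross-presenting dendritic cells, at 4.12, 10.1, 11, 5.30 and 6.60 (log2 difference 1.5, edgeR adjusted p = 0.11). Ldlrad4 was chosen after its values were seen.

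Checkpoint and exhaustion genes were higher in both AKI libraries for 18 of 19 and lower for none (median 0.85). Pdcd1 was at 0.249, 0.763, 0.846, 0.481 and 0.728, Lag3 at 0.0830, 0.297, 0.263, 0.217 and 0.305, and Tigit at 0.0138, 0.0814, 0.0813, 0.0644 and 0.0615, all lowest in control. Of 28 TCR signal and immediate early genes 21 were higher and 5 lower (median 0.73), and of 18 cytotoxic genes 14 were higher and 4 lower (median 0.66). Gzma had a log2 difference of 1.26 (edgeR adjusted p = 0.14), Gzmb of 0.52 (0.24) and Prf1 of 0.00 (1). Isg15 had a log2 difference of 1.45 (SE 0.16, edgeR adjusted p = 0.085), while of 64 interferon-stimulated genes 41 were higher and 18 lower (median 0.41).

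Several other lists had more genes higher than lower in both AKI libraries. Residual cell cycle genes were higher for 26 of 30 and lower for 1 (median 0.95), effector and memory transcription factors for 16 of 18 and 1 (0.62), genes of the TCR complex for 21 of 24 and 1 (0.52), and MHC class I and immunoproteasome genes for 16 of 21 and 3 (0.57). Cytokine receptors were higher for 18 of 25 and lower for 6 (0.73), cytokine and chemokine ligands for 15 of 22 and 5 (0.76), and survival and apoptosis genes for 12 of 18 and 3 (0.72). NK-type receptors were higher for 4 of 15 and lower for 7 (0.06), glucocorticoid-induced genes for 3 of 12 and 8 (0.03), glycolysis genes for 8 of 15 and 6 (0.23), and chemokine and homing receptors for 9 of 17 and 7 (0.41, or 0.09 without AKI 2). Of 16 targets of p53 7 were higher and 7 lower (0.38, or 0.13 without AKI 1 and 0.67 without AKI 2).

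Values of library quality moved with this comparison. All 13 mitochondrially encoded genes were lower in both AKI libraries (median -1.37), with summed levels of 1085, 482, 418, 600 and 410. Of 74 nuclear respiratory chain genes 71 were lower (median -0.35), and 73 of 77 ribosomal protein genes were higher (median 0.45). Heat shock and dissociation stress genes summed to 158, 228, 226, 186 and 147. Their part in the comparison was not tested. Among cells with no UMI of another lineage 52 genes were called in AKI against control and 0 in CKD against control. In CKD against control, which uses the same control library, 0 of 13764 genes passed (lowest edgeR adjusted p = 0.074), 3240 had an unadjusted p under 0.05 (23.5%) and DESeq2 called 541. Of all genes 35.9% were higher and 47.2% lower in both CKD libraries than in control. Naive genes were lower in both for 16 of 20 and higher for 2 (median -0.46), checkpoint genes higher for 16 of 19 and lower for 1 (0.83), and residency genes higher for 8 of 14 and lower for 3 (0.48). TCR signal and immediate early genes were higher for 12 of 28 and lower for 10 (0.17), with summed levels of 142, 189, 197, 133 and 142. The spread in these fits comes from the AKI and CKD pairs. Without CKD 1 edgeR called 1349 genes in AKI against control and 2538 in CKD against control, and without CKD 2 it called 1236 and 599.

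Between the CKD and AKI libraries, edgeR called no gene in CD8 T lymphocytes, and the gene lists are described by their counts. It called 0 of 12755 genes (0%, lowest adjusted p = 0.19), with 1362 at an unadjusted p under 0.05 (10.7%, of them 6.77% of all genes higher and 3.9% lower), and DESeq2 called 143. Both CKD libraries lay above both AKI libraries for 20.3% of genes and below for 22.3%. The lists are read against these shares and a median of -0.01 over all genes. In CKD against AKI, the fits and list medians without a library also held the control library, unlike the main fit. A fit of all 5 libraries with control as its own group called 0 genes. Without CKD 1 edgeR called 207 genes and without CKD 2, 129, where the remaining library is assumed to vary like the AKI pair. The genes called without CKD 2 included Itgae, Xcl1, Ccl3, Tbx21 and Prf1 of those named below.

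Tissue residency genes were lower in CKD in 12 of 14 and higher in none (median -0.58). Itgae, at 0.899 and 0.933 in AKI and 0.458 and 0.651 in CKD, had a log2 difference of -0.69 (SE 0.23, unadjusted p = 0.029, edgeR adjusted p = 0.41). Xcl1 differed by -0.80 (SE 0.20, edgeR adjusted p = 0.35), Cxcr6 by -0.42 and Cd69, an early activation and retention marker, by -0.31, and none of them overlapped between the groups. Without CKD 1 the median of the list was -0.38.

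TCR signal and immediate early genes were lower in CKD in 24 of 28 and higher in 2 (median -0.48, or -0.27 without CKD 1). Nr4a3, induced by T-cell receptor signals, was at 0.484, 1.79, 1.59, 0.716 and 0.899 (log2 difference -1.04, SE 0.19, edgeR adjusted p = 0.33). Heat shock and dissociation stress genes, which tissue digestion also raises, were lower in 11 of 19 and higher in 1 (median -0.37, or -0.61 without CKD 1). Their part in it was not tested. No gene of either list was called, and Nr4a3 was chosen after its values were seen.

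Of 22 cytokine and chemokine ligand genes 11 were lower in both CKD libraries and 5 higher (median -0.25, or -0.05 without CKD 1 and -0.13 without AKI 2), and edgeR called none. Ccl4 was at 24.3, 33.8, 36, 21.5 and 22.5, a log2 difference of -0.65 (SE 0.16, unadjusted p = 0.01, edgeR adjusted p = 0.35), and Ccl3 was at 1.29, 1.98, 2.30, 0.918 and 1.42 (log2 difference -0.83, edgeR adjusted p = 0.41). Ccl5 overlapped between the groups and differed by -0.11 (edgeR adjusted p = 0.93). Tbx21 was at 0.318, 0.637, 0.711, 0.297 and 0.379, a log2 difference of -0.96 (SE 0.20, unadjusted p = 0.0041, edgeR adjusted p = 0.34), and its CKD levels lay on either side of the control level. DESeq2 called Ccl4 (adjusted p = 0.003), Xcl1 (0.0061), Ccr7 (0.0077) and Tbx21 (0.012).

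Granzymes showed little difference between AKI and CKD. Gzma differed by 0.15 (SE 0.22), Gzmb by -0.19 (SE 0.15) and Gzmk by 0.02 (SE 0.12), none with an edgeR adjusted p under 0.73, and the sign for Gzma and Gzmk changed with the processing. Prf1 was lower in both CKD libraries, with a log2 difference of -0.69 (SE 0.21, unadjusted p = 0.022, edgeR adjusted p = 0.4). Of the 18 cytotoxic genes 3 were higher in CKD and 5 lower, with a median of -0.02 (0.09 without CKD 1 and -0.13 without CKD 2). Thinned to 1000 UMIs a cell, Gzmb was detected in 9.43%, 9.93%, 10.9%, 12.2% and 9.98% of CD8 cells and in 0% to 0.855% of B lymphocytes, and the unthinned CD8 shares were 19.1%, 19.8%, 20.6%, 27.0% and 24.7%. Prf1 was detected in 4.38%, 3.97%, 4.04%, 1.81% and 2.61%.

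**Figure D3:**
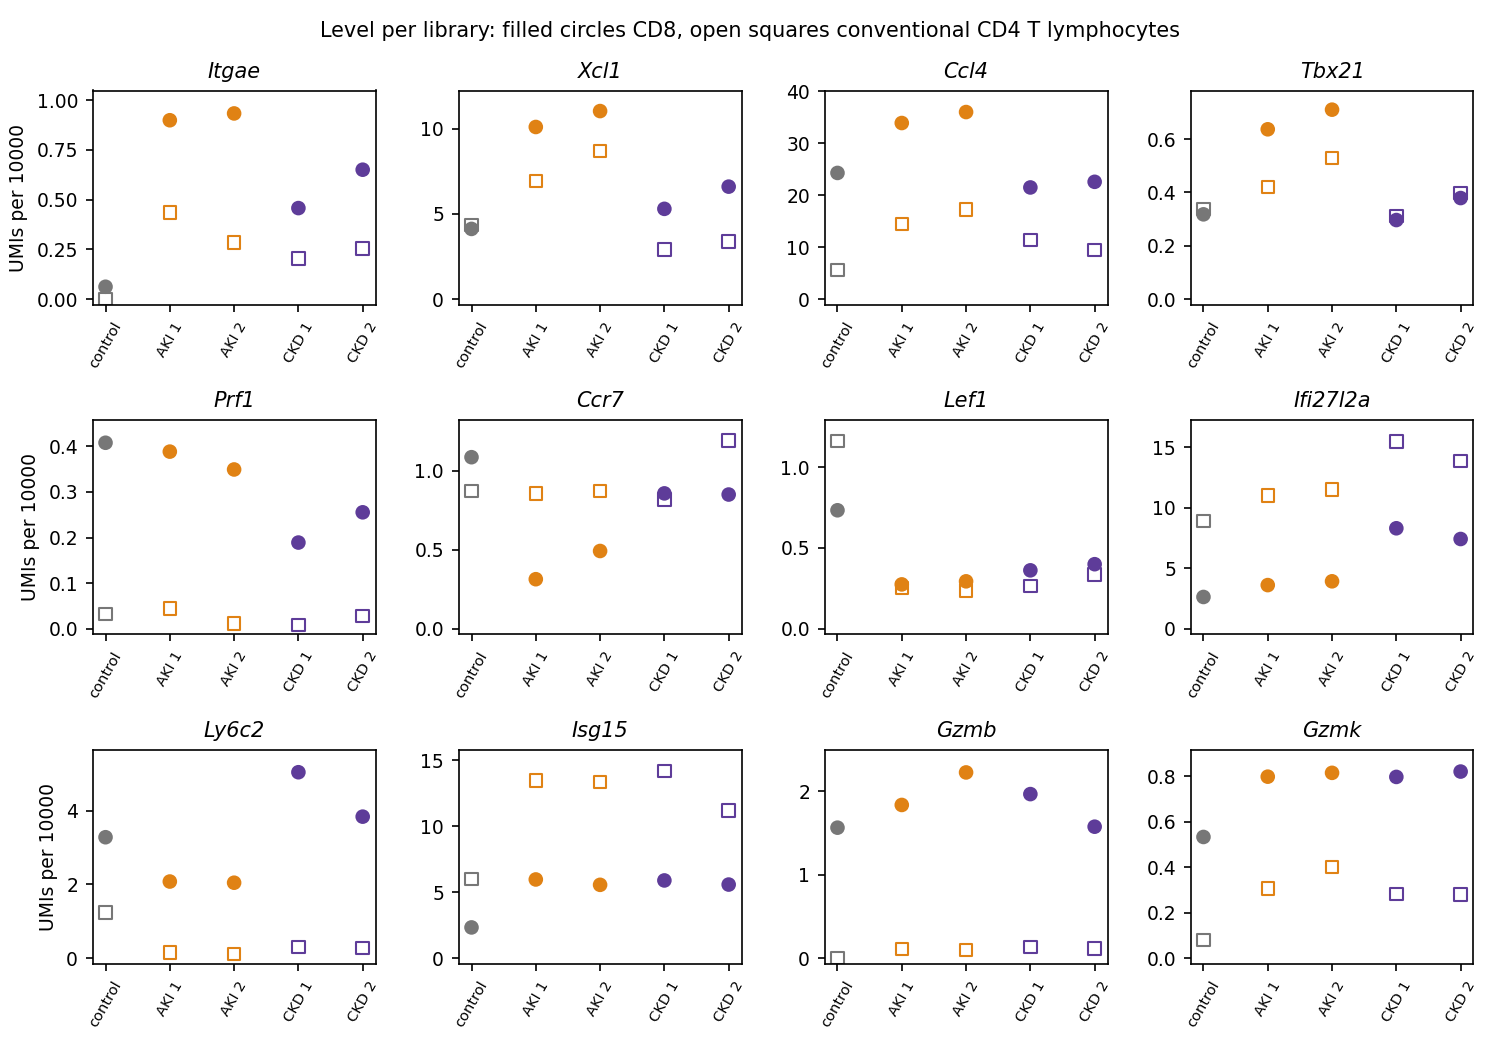
Level of 12 genes in UMIs per 10000 in each library, in CD8 T lymphocytes (filled circles) and conventional CD4 T lymphocytes (open squares), each panel with its own axis. Itgae, Xcl1, Ccl4, Tbx21 and Prf1 are lower in both CKD libraries than in both AKI libraries in CD8 cells, Ccr7, Lef1, Ifi27l2a and Ly6c2 are higher, and Isg15, Gzmb and Gzmk overlap.

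Naive and stem-like genes were higher in CKD in 11 of 20 and lower in 2 (median 0.44, or 0.28 without CKD 2). Ccr7, at 0.313 and 0.492 in AKI and 0.856 and 0.849 in CKD, differed by 1.10 (SE 0.24, unadjusted p = 0.0054, edgeR adjusted p = 0.34). Thinned to 1000 UMIs a cell, it was detected in 8.08%, 1.86%, 2.55%, 5.06% and 5.47% of CD8 cells, against 42.9% to 63.2% of B lymphocytes, which use the gene themselves. Dapl1, a marker of naive and stem-like CD8 cells, was at 0.864, 0.178, 0.164, 0.322 and 0.448 (log2 difference 1.20, edgeR adjusted p = 0.34), and the factor Myb, which sustains stem-like cells and the cell cycle, was at 0.0691, 0.0958, 0.102, 0.329 and 0.316 (log2 difference 1.72, unadjusted p = 4.5e-05, edgeR adjusted p = 0.19). Ly6c2 differed by 1.11 (SE 0.13, edgeR adjusted p = 0.28). Dapl1, Myb and Ly6c2 were chosen after their values were seen.

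Residual cell cycle genes were higher in CKD in 26 of 30 and lower in none (median 1.01), although cells with 2 or more Mki67 and Top2a UMIs had been removed. Stmn1, a microtubule regulator, was at 0.194, 0.309, 0.335, 1.34 and 0.639, and Birc5 (survivin) at 0, 0.0305, 0.0286, 0.424 and 0.208, both named after their values were seen. Among cells with no Mki67 or Top2a UMI the list's median was 0.62, and with cells thinned before gating it was 0.63. Nuclear respiratory chain genes were higher in 39 of 74 and lower in none (median 0.35, or 0.21 without CKD 1). Interferon-stimulated genes were higher in 33 of 63 and lower in 5 (median 0.22, or 0.12 without AKI 1 and 0.14 without CKD 2), while Isg15 itself differed by 0.01 (SE 0.12).

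Checkpoint and exhaustion genes were lower in both CKD libraries than in either AKI library for 11 of 19 and higher in both for 4 (median -0.21, or -0.04 without CKD 1, -0.13 without AKI 2 and -0.40 without CKD 2), and none was called by edgeR. Pdcd1 differed by -0.37 (SE 0.26, edgeR adjusted p = 0.69) and Lag3 by -0.06, and the groups overlapped for Lag3 and not for Pdcd1. Tox, at 0.325, 0.556, 0.639, 0.432 and 0.552, had a log2 difference of -0.25 (edgeR adjusted p = 0.74). Glycolysis genes were higher in 7 of 15 and lower in 2 (median 0.24), MHC class I and immunoproteasome genes higher in 10 of 21 and lower in 3 (0.10, or 0.22 without CKD 1, 0.07 without AKI 1 and 0.04 without CKD 2), and NK-type receptors higher in 5 of 14 and lower in 4 (0.05, or 0.28 without CKD 1 and -0.25 without CKD 2). Effector and memory transcription factors were lower in 8 of 18 and higher in 3 (-0.11, or 0.08 without CKD 1 and -0.42 without CKD 2). Glucocorticoid-induced genes were lower in 6 of 12 and higher in 1 (-0.21, or -0.05 without CKD 1 and -0.37 without CKD 2), and genes of the TCR complex lower in 7 of 24 and higher in 4 (-0.02, or 0.18 without CKD 1 and -0.25 without CKD 2). Of 15 targets of p53, the factor that DNA damage activates, 1 was higher and 3 lower (0.00). Cdkn1a (p21), the cell cycle inhibitor among them, was at 0.284, 1.43, 1.34, 1.23 and 0.719, lowest in control, and was named after its values were seen.

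**Figure D4:**
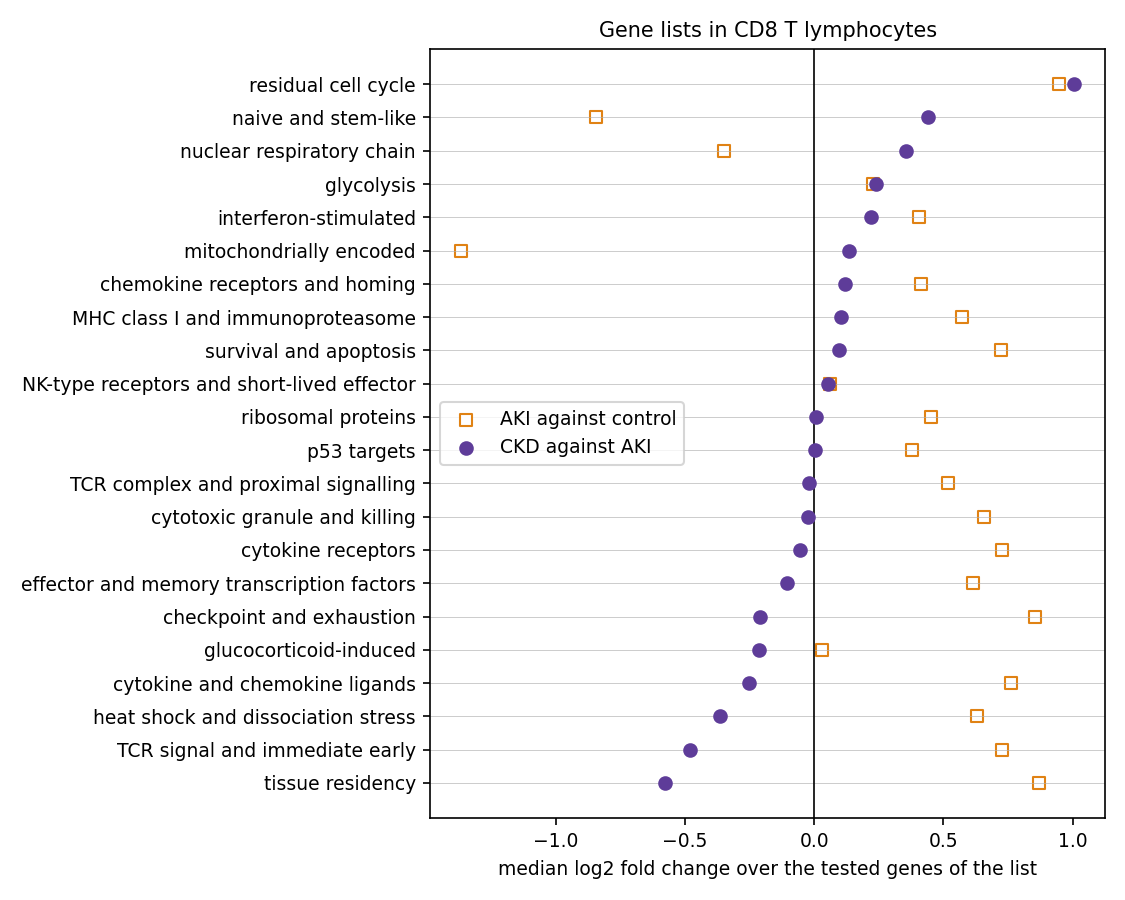
Median log2 difference of each gene list in CD8 T lymphocytes, for CKD against AKI and for AKI against the single control library. Residual cell cycle (1.01) and naive genes (0.44) are highest in CKD against AKI and residency (-0.58) and TCR signal genes (-0.48) lowest, while naive genes are at -0.85 and residency genes at 0.87 in AKI against control.

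Some of the greatest log2 differences of CKD from AKI were in genes of other cells. Ctsk and Mmp9, proteases of osteoclasts and macrophages, were at 0, 0.00254, 0.0139, 1.57 and 0.611 and at 0.0138, 0.0102, 0.0203, 0.795 and 0.460 in CD8 cells (log2 differences 7.04 and 5.36, edgeR adjusted p = 0.28 and 0.19). In B lymphocytes of the CKD libraries their levels were 11 and 16.4, and 8.49 and 13, above those in CD8 cells. Both genes were chosen after their values were seen, and the part of free RNA in these levels was not tested.

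A test of whether the CKD-AKI difference itself was unequal in CD8 and CD4 cells called 9 of 12775 genes (0.0705%), 5 with a more positive difference in CD8 cells (0.0391%) and 4 with a more negative one (0.0313%). Among cells with no UMI of another lineage the test called 22 genes, 7 more positive and 15 more negative, and 3 of the 9 were among them. Ifi27l2a, an interferon-stimulated gene, was at 2.62, 3.60, 3.92, 8.31 and 7.42 in CD8 cells and at 8.90, 11, 11.5, 15.5 and 13.9 in CD4 cells, an excess of 0.70 (SE 0.06, edgeR adjusted p = 0.0021). It was also at 11.9 and 3.98 in B lymphocytes of CKD, against 1.52 and 3.05 in those of AKI. Cd160, a receptor of the TNF-family protein HVEM, was at 0.844, 0.754, 0.808, 1.12 and 1.31 in CD8 cells and at 0.468, 0.246, 0.235, 0.182 and 0.167 in CD4 cells, so that it was higher in CKD in the first and lower in the second (1.17, SE 0.16, edgeR adjusted p = 0.043). Ldlrad4 was lower in CKD in both, by more in CD8 cells (-0.78, SE 0.11, edgeR adjusted p = 0.041). Itgae showed no unequal difference that the test could call (-0.03, SE 0.20), nor did Xcl1 (0.49, SE 0.08, edgeR adjusted p = 0.066). DESeq2 called 5 genes here, among them Ifi27l2a, and gave no adjusted p to the other 8 of the 9. Leaving out any 1 library gave between 15 and 115 genes, and without CKD 1 Ldlrad4 was no longer called (edgeR adjusted p = 0.083).

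Within single cells of the AKI and CKD libraries, Itgae was found in a smaller share of cells with Ly6c2 than without, while in all 5 libraries Gzma was found more often in cells with Gzmb, and Ifit1 in cells with Isg15, than in cells without. Cells were thinned to 2000 UMIs, those below that depth were left out, and shares over cells are a description. Itgae was detected in 0%, 4.81%, 3.25%, 4.24% and 3.78% of cells with a Ly6c2 UMI and in 2.06%, 17.6%, 17.4%, 9.5% and 13% of those without. The intervals of both shares were apart in each AKI and CKD library. In control they rest on 0 of 97 cells, which allows a share of up to 3.73%, and 4 of 194 (exact 95% interval 0.565% to 5.19%), and no difference was detectable at this depth. Gzma was detected in 20.9%, 29.9%, 27.9%, 27.3% and 32.2% of cells with Gzmb and in 2.82%, 6.86%, 6.61%, 7.79% and 5.81% of those without. Prf1 was detected in 30.2%, 12.2%, 12%, 4.15% and 5.93% of cells with Gzmb and in 6.85%, 8.20%, 6.5%, 3.98% and 5.36% of those without. The gap between the shares was widest in the control library and narrow in both CKD libraries. In control it rested on 13 of 43 cells (exact 95% interval 17.2% to 46.1%) and 17 of 248 (4.04% to 10.7%). Ifit1 was detected in 34.2%, 43.3%, 46.3%, 45.6% and 44.4% of cells with Isg15 and in 5.50%, 12.4%, 12.7%, 14.1% and 9.83% of those without. Ccl5 was detected in 34.3% of control cells with a Ccr7 UMI and in 88.9%, 89.4%, 90.7% and 83.8% of such cells in the other libraries, against 89.5% to 98.3% of cells without. In B lymphocytes thinned alike, which should lack Ccl5, the share was 2.12%, 23.4%, 20.6%, 17.9% and 20.7%, lowest in control as well, and the part of free RNA in the difference from control was not tested.

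**Figure D5:**
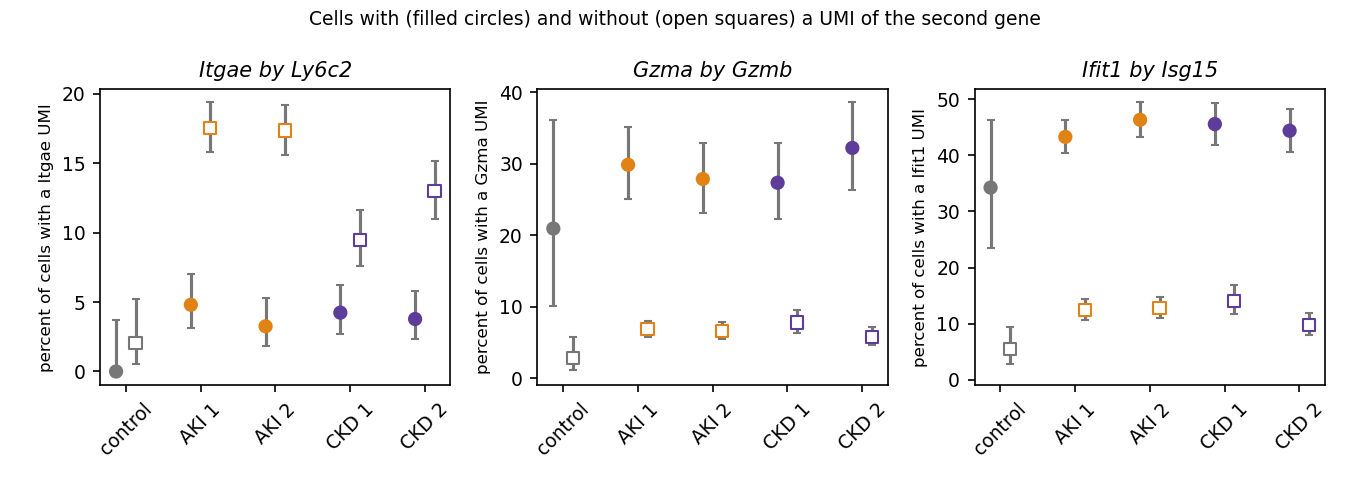
Share of CD8 T lymphocytes with a UMI of Itgae, Gzma and Ifit1, in percent with exact 95% intervals, among cells with (filled) and without (open) a UMI of Ly6c2, Gzmb and Isg15, after thinning to 2000 UMIs. Itgae is lower in cells with Ly6c2 in each AKI and CKD library, with overlapping intervals in control, and Gzma and Ifit1 are higher in cells with Gzmb and Isg15.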

How the data were processed

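The authors deposited, for each of 5 libraries (1 control, 2 AKI, 2 CKD), a matrix of UMI counts of 32285 genes per barcode. The submitters' notes name Cell Ranger 7.2.0, STAR and GRCm39, while the headers of the AKI and CKD matrices name Cell Ranger 5.0.0. No deposited cell annotation was used, doublets were not called, and free RNA was not subtracted. The members and gene lists were chosen with earlier results of these data known.

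UMIs were summed over the members of each library and tested with edgeR 4.0.16 (quasi-likelihood, TMM, filterByExpr, Benjamini-Hochberg, threshold 0.05). CKD was compared with AKI over 4 libraries, both with control in one 3-group fit, and CD8 with conventional CD4 T lymphocytes and natural killer cells with library as a block. An interaction term compared the CKD-AKI difference between CD8 and CD4 cells. The fits were tested on simulated data. Gate genes were left out of named genes. Named genes were a core panel of 30, the 10 greatest called rises and falls with non-overlapping groups and a level of at least 0.5 per 10000, and up to 4 called genes per list, over 22 lists; some of these genes are not reported here. Shares carry exact 95% binomial intervals, and cells were thinned to 1000 or 2000 UMIs where shares were compared. Alternatives were DESeq2 1.42.0, RLE factors, other filters, other gates, thinning, the replicate block and leaving out each library. For CKD against AKI, leaving out a library used the 3-group fit with control. Counting error alone is covered by the intervals, at 1446294 to 11789686 UMIs in the members of a library.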

Additional observations from a re-analysis of the deposited data

Results flagged for a closer look

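In 9 genes the CKD-AKI difference was unequal between CD8 and conventional CD4 T lymphocytes by edgeR's interaction test (adjusted p under 0.05). The log2 difference of differences was 0.70 for Ifi27l2a, 2.48 for Nrgn, 1.25 for Hsd11b2, 1.17 for Cd160 and 1.51 for Tmem52b, and -1.47 for H2-DMb1, -0.78 for Ldlrad4, -0.91 for Ifitm3 and -1.75 for Nupr1. The filter for no UMI of another lineage covered only the genes listed above and was chosen for this test after seeing the data. Among cells with no UMI of another lineage, Ifi27l2a (0.48, adjusted p = 0.034), Cd160 (1.20, adjusted p = 0.014) and Ldlrad4 (-0.79, adjusted p = 0.016) still passed. The adjusted p there was 0.37 for Nrgn, 0.090 for H2-DMb1, 0.43 for Hsd11b2, 0.53 for Ifitm3, 0.81 for Tmem52b and 0.97 for Nupr1. Hsd11b2 and Tmem52b are genes of the renal tubule, and H2-DMb1 is a gene of antigen-presenting cells.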

How the results depend on the processing

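Control had 1 library and AKI and CKD 2 each, so the exact permutation test of a share could not pass. The CKD-AKI difference in the share of CD8 T lymphocytes was below 0 in each setting run. The groups overlapped when only members with no UMI of another lineage were counted, over all kept barcodes (-3.21 points, exact permutation p = 0.667). The difference was -14.5 points over T cells. It was -7.91 points over T cells after thinning and -6.37 with cycling CD8 cells counted in, both chosen after seeing the data. With a library left out it was -13.3 to -4.73 points. In CKD against AKI, where edgeR called no gene, DESeq2 called 143, edgeR without the filter on low counts 77 and with the replicate block 27, and with a library left out 0 to 207. The replicate numbers share no stated origin. The deviations of AKI 1 and CKD 1 from their group means correlated at 0.46 over 5000 genes. With 2 libraries in a group, the deviations of AKI 2 and CKD 2 are the mirror image and add no further value. The correlation therefore cannot show whether libraries of the same number share an origin. Against control, AKI gave 403 genes with DESeq2, 692 without the low-count filter, 52 in cells with no UMI of another lineage and 0 to 1349 with a library left out. CKD against control gave 541, 1140 and, with a library left out, 0 to 2538. In cells with no UMI of another lineage, CKD against control gave 0. Against control, in CD8 against CD4 and in the interaction, that setting was chosen after seeing the data. CD8 against CD4 gave 1079 to 2042 genes with a library left out. The interaction gave 5 with DESeq2, 24 with RLE factors, 205 without the low-count filter, 22 (7 higher and 15 lower) in cells with no UMI of another lineage and 15 to 115 with a library left out. The cause was not tested. Among the named genes followed through the settings, no called gene reversed. Of the core panel genes called in CD8 against CD4, those that lost their call included Cd69, Lag3 and Cx3cr1, each when 1 library or another was left out. In CKD against AKI, uncalled genes near 0 (among them Gzma, Gzmk, Isg15, Cx3cr1, Nkg7, Ccl5, Lag3 and Tcf7) changed sign in at least 1 setting, as did the median of the cytotoxic list (-0.13 to 0.09).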
